A study of Mus musculus with 17 samples.

Results

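The genes described here are 8 targets and partners of the peroxisome proliferator-activated receptor alpha (PPARα) in mouse colon, namely Ppara, Acot1, Acot3, Cpt1a, Pdk4, Angptl4, Acaa1b and Fabp1. They were taken from 37325 gene or transcript names on the array by gene name, and each was read from the probe with the highest mean signal. The study asked how the pregnane X receptor (PXR, encoded by Nr1i2) and its ligand pregnenolone 16α-carbonitrile (PCN) change gene expression, and these arrays held RNA of colon, whose sampled part is not given in the sources used here. All 17 samples came from C57Bl6/J males killed 6 h after the last of 4 daily intraperitoneal injections, at ZT6. The labels call the mice fed at that time and the article semi-fasted, and food intake before death is not given in the sources used here. WT CONT (n = 4) and WT PCN (n = 4) were wild-type mice bought at 6 weeks of age, while Pxr-/- CONT (n = 5) and Pxr-/- PCN (n = 4) carried a deletion of Pxr on the same background and had been bred in house. CONT mice received corn oil and PCN mice received 100 mg/kg PCN in corn oil. Each group had been allocated 6 mice, all acclimatized for 2 weeks, and the age of the Pxr-/- mice is not given in the sources used here. Genotype therefore cannot be told apart from the source of the mice.

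PPARα is a nuclear receptor that binds DNA as a partner of the retinoid X receptor and is switched on by fatty acids, which makes it the main sensor of fasting in liver. Its targets carry fatty acids into the cell, bind and activate them, pass them into mitochondria and peroxisomes for oxidation, and turn the product into ketone bodies. In colon, the lining cells burn butyrate from the gut flora and make ketone bodies through the same enzymes, and PPARα is also expressed there.

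The DNA before the start sites is shown for the gene with the widest range among the arrays, Fabp1, and for Acot1 and Cpt1a, the pair of genes that varied most alike. The RefSeq table held promoter windows for 7 of the 8 genes, and Angptl4 was not listed. Each window covers 250 bases before to 50 bases after the start site on the strand of the gene (GRCm38.p6, plus strand for all that are shown), and capitals mark matches to the half-site AGGTCA or to a looser pair of half-sites, AGGNCA repeated after 1 base, read on both strands. The windows are chr6:71199629-71199928 for Fabp1, chr12:84009252-84009551 for Acot1 and chr19:3323051-3323350 for Cpt1a.
Fabp1: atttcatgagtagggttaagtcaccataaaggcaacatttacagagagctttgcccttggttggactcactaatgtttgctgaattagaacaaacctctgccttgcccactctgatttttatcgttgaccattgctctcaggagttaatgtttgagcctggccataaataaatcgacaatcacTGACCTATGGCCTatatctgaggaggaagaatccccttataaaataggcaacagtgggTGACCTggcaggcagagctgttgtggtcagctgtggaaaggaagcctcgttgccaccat
Acot1: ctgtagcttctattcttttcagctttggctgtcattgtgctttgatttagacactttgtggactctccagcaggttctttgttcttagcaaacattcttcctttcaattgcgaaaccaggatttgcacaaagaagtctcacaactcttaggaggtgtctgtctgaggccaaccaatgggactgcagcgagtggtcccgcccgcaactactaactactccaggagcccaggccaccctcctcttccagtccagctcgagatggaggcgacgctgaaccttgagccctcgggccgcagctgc
Cpt1a: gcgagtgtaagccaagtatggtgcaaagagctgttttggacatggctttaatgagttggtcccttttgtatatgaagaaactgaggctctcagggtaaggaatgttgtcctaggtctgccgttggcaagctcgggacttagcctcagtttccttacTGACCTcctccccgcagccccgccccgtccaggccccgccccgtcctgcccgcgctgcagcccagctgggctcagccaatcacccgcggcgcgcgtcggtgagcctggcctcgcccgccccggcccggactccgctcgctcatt
The Fabp1 window held a loose pair of half-sites from position -67 to -55 on the strand opposite to the gene, of which the half-site at -67 to -62 is an exact one, and another exact half-site from -9 to -4. The loose pair occurs in 0.381% of the 32851 promoter windows in the table, and Fabp1 was the only one of the 7 genes with a window that held it. The exact half-site occurs in 16.3% of all windows and was found for 3 of the 7 genes, at -94 to -89 in Cpt1a, after the start site in Acot3, and in Fabp1. No match to these letters was found in the windows of Acot1, Ppara, Pdk4 and Acaa1b.

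The signal of every probe was set on a log2 scale and the arrays were brought to the same distribution. A gene was called changed where the adjusted p of the linear model (limma, Benjamini-Hochberg over all probes) was at most 0.05 and the fold change was over 1.5. On each array, 61.0% to 69.7% of the 56605 probes were well above the background, and 38703 probes were tested. The 8 genes had 10 probes. All 8 chosen probes entered the test, and 7 of them were well above the background on all 17 arrays, with Fabp1 on 14. There were 2 near-identical pairs of arrays across groups. The arrays labelled WT PCN 4 and Pxr-/- PCN 2 differed by an SD of 0.172 over all probes and those labelled WT PCN 3 and Pxr-/- CONT 2 by 0.198, against 0.297 to 0.616 for every other pair. The main results are therefore given with all 17 arrays and with the 13 others. Those 13 were 4 of WT CONT, 2 of WT PCN, 4 of Pxr-/- CONT and 3 of Pxr-/- PCN. Nr1i2 itself had a log2 signal of 11.97 to 12.31 in WT CONT and 10.39 to 11.61 in Pxr-/- CONT. The arrays labelled WT PCN 3 and WT PCN 4 read 11.10 and 11.15, within the Pxr-/- CONT range. Nr1i2 read 12.44 and 11.85 on WT PCN 1 and 2 and 10.95 to 11.93 in Pxr-/- PCN, so the genotypes overlapped with PCN. Whether its probe lies in the deleted part is not given in the sources used here.

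None of the 8 genes was called in any comparison. In WT colon no PCN difference of the 8 genes reached an unadjusted p of 0.05, whereas in Pxr-/- colon Angptl4 was 2.33-fold higher and Acot1 1.23-fold higher with PCN, and both were lower in Pxr-/- CONT than in WT CONT. These differences in Angptl4 and Acot1 passed that p but not the adjustment over all probes with 17 or 13 arrays. The difference of the PCN effects between genotypes had an adjusted p of 0.848 for both genes with 17 arrays (limma). With 13 arrays, Angptl4 was also 1.52-fold higher with PCN in WT colon, not called. The widest variation lay within groups. Ppara varied with genes that mark the position along the colon. Fabp1 was highest on the arrays with the highest signal of liver genes, but its relation with these genes did not pass the adjustment. It had a Pearson r of 0.776 and a Spearman rho of 0.0536 (permutation, adjusted p = 0.122 and 0.992). Without the points farthest from the median of the liver genes, r was 0.123. In bulk tissue, fewer cells of a type and less RNA per cell cannot be told apart.

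**Figure D1:**
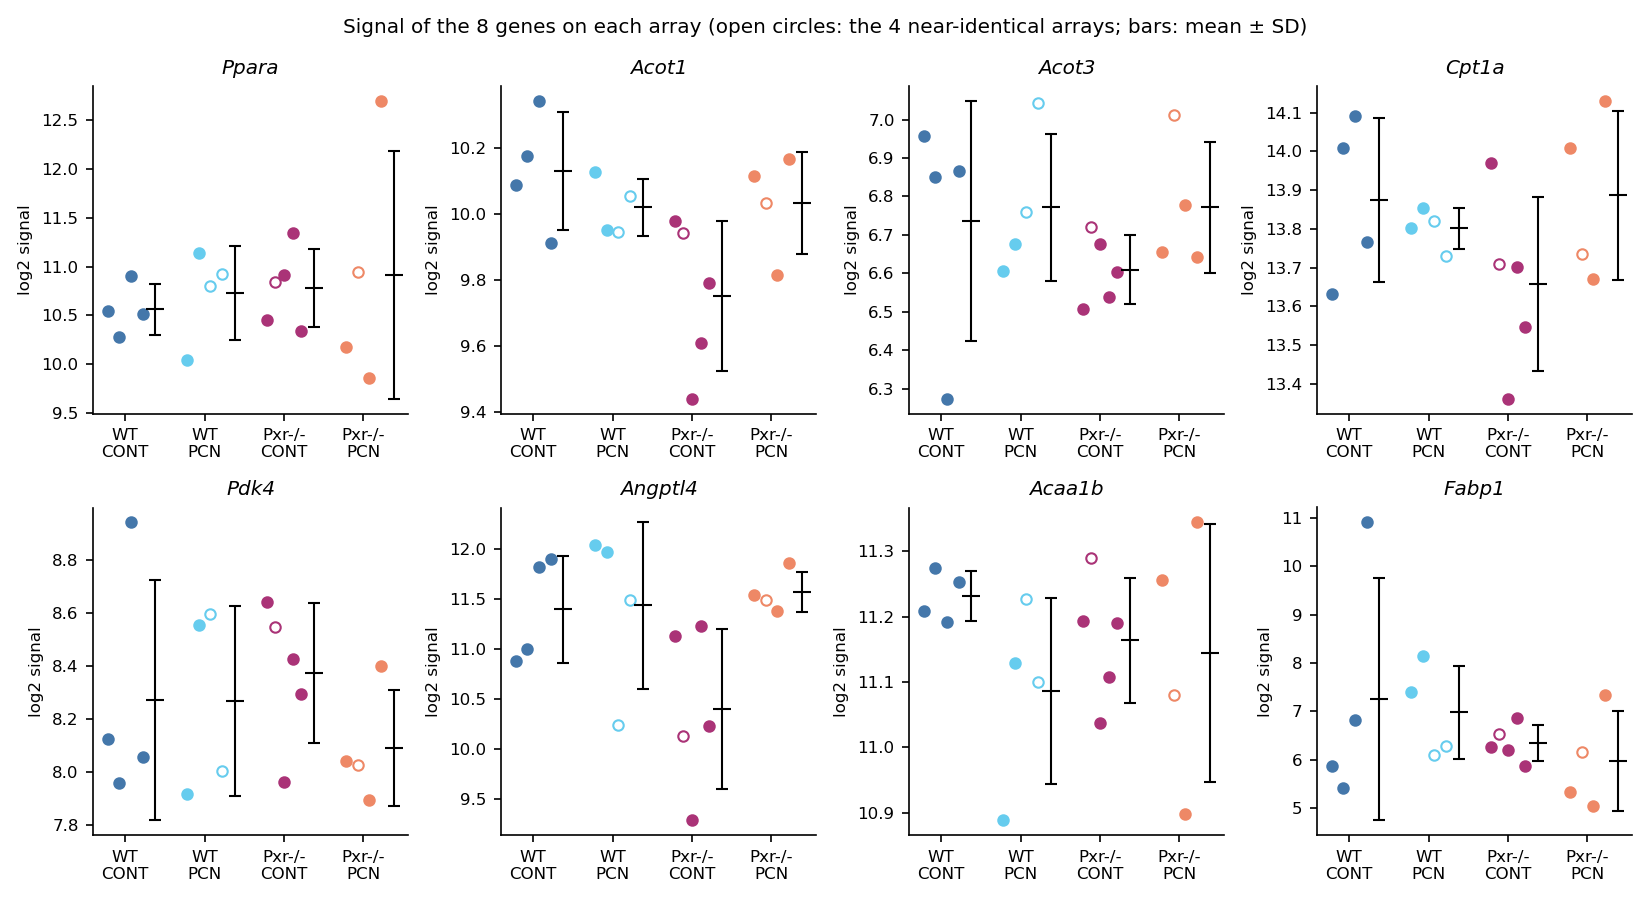
Log2 signal (y axis, a different range in each panel) of the 8 genes on each of the 17 arrays by group, with open circles for the 4 near-identical arrays and bars for the mean and SD of each group. Angptl4 is the only gene whose Pxr-/- PCN arrays, at 11.38 to 11.86, all lie above the Pxr-/- CONT arrays, at 9.29 to 11.22, while the highest array is Pxr-/- PCN 4 for Ppara (12.69), WT CONT 4 for Pdk4 (8.94) and WT CONT 5 for Fabp1 (10.90), and the lowest for Acot3 is WT CONT 4 (6.27).

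Ppara encodes the receptor itself (chr15:85734910-85806851, GRCm38.p6, with the probe at chr15:85632110-85632169 on the plus strand of mm9). Its log2 signal was 10.55, 10.28, 10.90 and 10.52 on WT CONT 2 to 5, and 10.04, 11.14, 10.80 and 10.93 on WT PCN 1 to 4. It was 10.46, 10.84, 10.91, 11.34 and 10.35 on Pxr-/- CONT 1 to 5, and 10.18, 10.94, 9.86 and 12.69 on Pxr-/- PCN 1 to 4. The 4 groups overlapped, and both the lowest and the highest array belonged to Pxr-/- PCN. The range over the arrays was 7.13-fold, and the SD was larger than that of 96.8% of the probes tested. The difference between PCN and corn oil was 0.16 (95% interval -0.85 to 1.18) in WT and 0.14 (-0.81 to 1.09) in Pxr-/- on the log2 scale. Without Pxr-/- PCN 4, the latter was -0.54. A second Ppara probe varied with the first (r = 0.989 over the 17 arrays) and gave 0.18 in WT and 0.13 in Pxr-/-.

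Ppara was high where the genes that mark the distal end of the colon were low. The distal list held the Hox genes Hoxb13, Hoxd12, Hoxd13 and Hoxa13, whose expression sets position along the gut. Its mean log2 signal was lowest, 6.54, on Pxr-/- PCN 4, where Ppara was highest, and it was highest, 11.36, on Pxr-/- PCN 3, where Ppara was lowest. Hoxb13 alone read 7.53 on Pxr-/- PCN 4 and 12.88 to 16.09 on the other arrays. Over 15 points, with each near-identical pair averaged to 1, Ppara and the distal list had a Pearson r of -0.961 and a Spearman rho of -0.911 (permutation p = 1e-05 for both, the smallest that 100000 permutations can give, and adjusted p = 0.00072 over the 72 relations of 8 genes with 9 marker lists). The r was -0.93 without the 2 points farthest from the median of the list, and -0.991 and -0.968 within the wash batches, with 7 points each. The genes and lists were chosen with earlier results of these data known, which the adjustment does not cover. The permutations were not restricted to groups or wash batches. For any of the 8 genes, only 1 other list had an adjusted p of at most 0.05 for both r and rho. This was the list of colonocyte genes, 8 genes of surface cells, with r = 0.735 and rho = 0.814 against Ppara (permutation, adjusted p = 0.0162 and 0.0151). The list of immune cell genes passed for rho only, with r = -0.675 and rho = -0.768 against Ppara (permutation, adjusted p = 0.0641 and 0.0298). The colonocyte genes did not vary alike. On Pxr-/- PCN 4, Slc51a, a bile acid transporter, read 15.70 against 5.55 to 13.30 on the other arrays, whereas the chloride exchanger Slc26a3 was at its lowest, 13.41 against 14.42 to 15.39. The genes most like Ppara over the 17 arrays, among 17046 gene names, were Hoxb4 (r = 0.974), Adh5 (r = 0.969) and Grin3a (r = 0.968). The part of position along the colon in the comparisons of the groups was not tested. Within the groups, the distal list ranged from 8.79 to 10.94 in WT CONT, 8.87 to 11.32 in WT PCN, 8.38 to 10.45 in Pxr-/- CONT and 6.54 to 11.36 in Pxr-/- PCN.

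**Figure D2:**
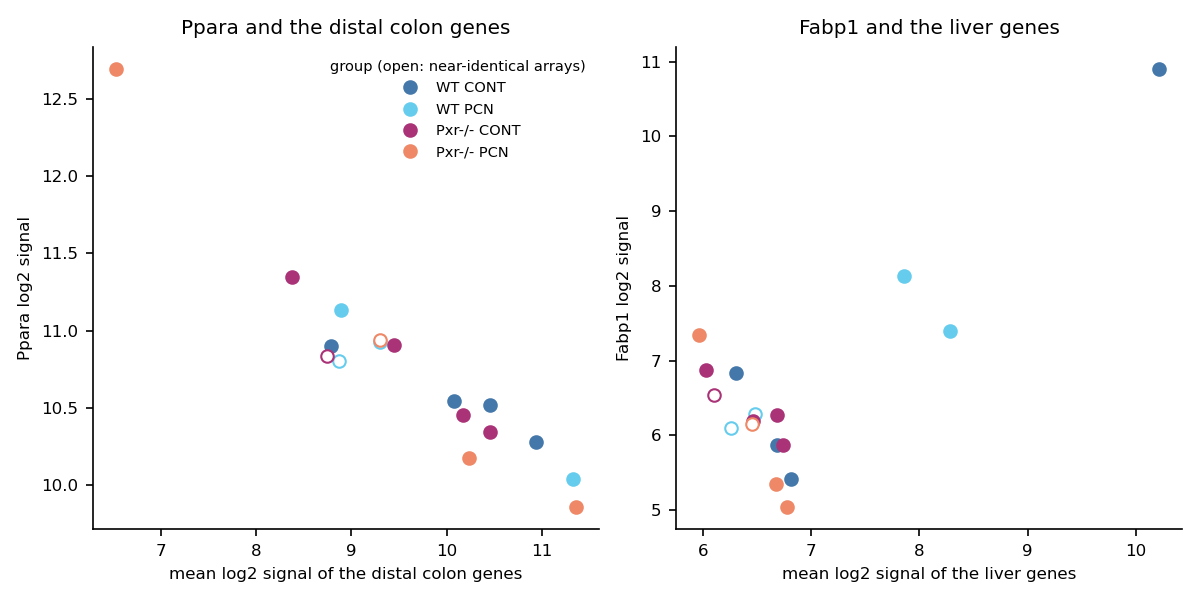
Log2 signal of Ppara (left, y axis) against the mean log2 signal of the distal colon genes (x axis), and of Fabp1 (right) against that of the liver genes, for the 17 arrays coloured by group, with open circles for the 4 near-identical arrays. Ppara is lower on arrays with more distal signal, from Pxr-/- PCN 4 at the left (6.54) to Pxr-/- PCN 3 at the right (11.36). Fabp1 is highest on the 3 arrays with the highest liver signal, but the lowest of these, WT PCN 1 (7.39), is close to Pxr-/- PCN 4 (7.34). The latter array has the lowest liver signal (5.96).

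Fabp1 encodes the fatty acid binding protein of liver and intestine, which carries fatty acids to the nucleus and the oxidizing organelles (chr6:71199879-71205034, GRCm38.p6, with the probe at chr6:71154906-71154965 on the plus strand of mm9). Its log2 signal was 5.88, 5.42, 6.83 and 10.90 on WT CONT 2 to 5, and 7.39, 8.14, 6.10 and 6.29 on WT PCN 1 to 4. It was 6.27, 6.53, 6.20, 6.87 and 5.87 on Pxr-/- CONT 1 to 5, and 5.34, 6.16, 5.04 and 7.34 on Pxr-/- PCN 1 to 4. The range of 58.2-fold was the widest of the 8 genes, with its low end on Pxr-/- PCN 3. Fabp1 was not well above the background there, nor on WT CONT 3 and Pxr-/- PCN 1. WT CONT 5 was the highest array. The list of liver genes, led by albumin (Alb), had its highest mean on the same array, 10.22, then 8.29 on WT PCN 1 and 7.86 on WT PCN 2, against 5.96 to 6.81 on the other 14. Alb itself read 12.68, 9.21 and 9.50 on these 3 arrays, and all 8 liver genes were above the background on WT CONT 5 but 4 to 7 of them elsewhere. Over the 15 points Fabp1 and the liver list had r = 0.776 and rho = 0.0536 (permutation, adjusted p = 0.122 and 0.992). Without the 2 farthest points r was 0.123, so the relation rested on those arrays. The genes most like Fabp1 were Apoa5 (r = 0.930, rho = 0.757), Ahsg (r = 0.913, rho = 0.662) and Ambp (r = 0.904, rho = 0.748). All are known as products of liver, and Ahsg is also on the liver list. They were picked by r over the same 17 arrays, WT CONT 5 among them, and the values are a description.

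The Fabp1 difference between Pxr-/- CONT and WT CONT was -1.01 (95% interval -2.75 to 0.73) on the log2 scale. It was 0.19 without WT CONT 5 and 0.20 without all 3 arrays high in liver genes. The PCN difference was -0.02 (-1.88 to 1.83) in WT and -0.28 (-2.01 to 1.46) in Pxr-/-. The WT value was 0.97 without WT CONT 5, 0.51 without WT PCN 3 and 4, and -0.57 without WT CONT 3. No direction can be given for Fabp1 at this precision.

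Angptl4 encodes a secreted inhibitor of lipoprotein lipase that limits the uptake of fat from blood (chr17:33774900-33781575, GRCm38.p6, with the probe at chr17:33911880-33911939 on the minus strand of mm9). Its log2 signal was 10.88, 10.99, 11.81 and 11.89 on WT CONT 2 to 5, and 12.03, 11.96, 10.24 and 11.49 on WT PCN 1 to 4. It was 11.13, 10.13, 9.29, 11.22 and 10.23 on Pxr-/- CONT 1 to 5, and 11.54, 11.49, 11.38 and 11.86 on Pxr-/- PCN 1 to 4. The 3 lowest arrays were all of Pxr-/- CONT, and in WT PCN only the array labelled WT PCN 3 was below 11, at a level near its near-identical partner Pxr-/- CONT 2.

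The group means of Angptl4 were 11.40 ± 0.53 (SD, n = 4) in WT CONT, 11.43 ± 0.83 (n = 4) in WT PCN, 10.40 ± 0.80 (n = 5) in Pxr-/- CONT and 11.57 ± 0.20 (n = 4) in Pxr-/- PCN. With PCN, Angptl4 was 1.22 (SE 0.38) higher in Pxr-/- colon on the log2 scale, and the groups did not overlap. Groups without overlap were seen for 2.8% of all probes in this comparison, and for 1 of the 8 genes. The adjusted p was 0.486 with 17 arrays and 0.621 with 13 arrays, where the difference was 1.04 (SE 0.39). It ranged from 0.98 to 1.56 over all the alternatives tried and had an adjusted p of at least 0.142 in each. In WT colon the difference was 0.17 (SE 0.40) with 17 arrays and 0.60 (SE 0.44) with 13. Angptl4 was lower in Pxr-/- CONT than in WT CONT by -1.05 (SE 0.38, adjusted p = 0.306) on the log2 scale, with overlap between the groups, and by -0.93 (SE 0.36, adjusted p = 0.423) with 13 arrays. The PCN effects of the genotypes differed by 1.05 (95% interval -0.12 to 2.22, adjusted p = 0.848), and by 0.44 (-0.86 to 1.73) without the near-identical arrays. The adipocyte list, with adiponectin (Adipoq) among its 8 genes, had means of 8.63 to 9.70 in WT CONT and 7.56 to 8.79 in WT PCN. They were 7.90 to 9.17 in Pxr-/- CONT and 7.27 to 8.15 in Pxr-/- PCN. The genes of the list did not vary alike, with Adipoq at 5.69 to 10.97 over the arrays and leptin (Lep) at 6.66 to 7.21. Angptl4 and this list had r = 0.292 and rho = 0.296 over the 15 points (permutation, adjusted p = 0.731 and 0.663). The genes most like Angptl4 were Pdpn (r = 0.874), Wdr92 (r = 0.851) and Rab3il1 (r = 0.846).

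Acot1 encodes a cytosolic thioesterase that releases free fatty acids from their coenzyme A esters (chr12:84009502-84017670, GRCm38.p6, with the probe at chr12:85358452-85358511 on the plus strand of mm9). The log2 signal of Acot1 was 10.09, 10.17, 10.34 and 9.91 on WT CONT 2 to 5, and 10.13, 9.95, 9.94 and 10.05 on WT PCN 1 to 4. It was 9.98, 9.94, 9.44, 9.61 and 9.79 on Pxr-/- CONT 1 to 5, and 10.11, 10.03, 9.82 and 10.16 on Pxr-/- PCN 1 to 4. Pxr-/- CONT held the 3 lowest arrays, although WT CONT 5 overlapped with the group. Its means were 10.13 ± 0.18 (SD, n = 4) in WT CONT, 10.02 ± 0.09 (n = 4) in WT PCN, 9.75 ± 0.23 (n = 5) in Pxr-/- CONT and 10.03 ± 0.15 (n = 4) in Pxr-/- PCN. Acot1 was lower by -0.40 (SE 0.10, adjusted p = 0.207) in Pxr-/- CONT than in WT CONT and higher by 0.30 (SE 0.10, adjusted p = 0.515) with PCN in Pxr-/- colon, on the log2 scale. With 13 arrays these were -0.42 (SE 0.11, adjusted p = 0.24) and 0.29 (SE 0.12, adjusted p = 0.659). With array weights the genotype difference was -0.37 with an adjusted p of 0.0362, and it was not called because the fold change stayed under 1.5 there, as it did in every alternative (-0.52 to -0.34). In WT colon PCN gave -0.06 (SE 0.10), and the PCN effects differed by 0.36 (SE 0.14, adjusted p = 0.848). The Acot genes are close copies that lie side by side, so that a probe may read more than 1 of them. Acot2, the mitochondrial copy, was also lower in Pxr-/- CONT, by -0.35 (SE 0.14, adjusted p = 0.336). Beside Cpt1a, the genes most like Acot1 were Tcta and Vps51 (r = 0.832 for both).

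Cpt1a encodes the carnitine transferase of the outer mitochondrial membrane that commits long-chain fatty acids to oxidation (chr19:3322326-3385735, GRCm38.p6, with the probe at chr19:3385374-3385433 on the plus strand of mm9). The log2 signal of Cpt1a was 13.63, 14.01, 14.09 and 13.77 on WT CONT 2 to 5, and 13.80, 13.85, 13.82 and 13.73 on WT PCN 1 to 4. It was 13.97, 13.71, 13.36, 13.70 and 13.55 on Pxr-/- CONT 1 to 5, and 14.01, 13.74, 13.67 and 14.13 on Pxr-/- PCN 1 to 4. The groups overlapped, and the whole range was 1.70-fold. The differences had the signs seen for Acot1, with 0.25 (SE 0.11, adjusted p = 0.665) for PCN in Pxr-/- colon and -0.24 (SE 0.11, adjusted p = 0.407) for Pxr-/- CONT against WT CONT. In WT, PCN gave -0.03 (95% interval -0.29 to 0.23). Over the 17 arrays, Cpt1a and Acot1 were the most alike of the 28 pairs of the 8 genes (r = 0.792, rho = 0.75), and each had r = 0.635 and r = 0.608, respectively, with Angptl4. These arrays share groups and 2 near-identical pairs, and the values are a description. Pxr-/- CONT 3 was the lowest array for Acot1, Cpt1a and Angptl4. Among all gene names, those most like Cpt1a included Sectm1b (r = 0.880) and Trem1 (r = 0.821).

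Acot3 encodes a peroxisomal thioesterase (chr12:84052144-84060400, GRCm38.p6, with the probe at chr12:85400452-85400511 on the plus strand of mm9). The log2 signal of Acot3 was 6.96, 6.85, 6.27 and 6.87 on WT CONT 2 to 5, and between 6.51 and 7.04 on the other 13 arrays. WT CONT 4 was the lowest array, and the groups overlapped. The second Acot3 probe was not above the background on any array. PCN gave -0.01 (95% interval -0.28 to 0.26) in WT and 0.14 (-0.11 to 0.39) in Pxr-/-, and Pxr-/- CONT differed from WT CONT by -0.11 (-0.36 to 0.14). The genes most like Acot3 were Rbm15 (r = 0.877), Nol7 (r = 0.83) and Ccne2 (r = 0.827).

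Pdk4 encodes the pyruvate dehydrogenase kinase that spares glucose when fat is burnt (chr6:5483351-5496278, GRCm38.p6, with the probe at chr6:5433441-5433500 on the minus strand of mm9). The log2 signal of Pdk4 was 8.12, 7.96, 8.94 and 8.06 on WT CONT 2 to 5, and between 7.90 and 8.64 on the other 13 arrays. WT CONT 4 was the highest array for Pdk4, the opposite of Acot3, and the pair had r = -0.646 over the 17 arrays. That array also had the highest signal of the list of pancreatic enzymes, 17.57, against 15.14 and 15.10 on the near-identical arrays labelled WT PCN 3 and Pxr-/- CONT 2, 10.51 on WT PCN 1 and 5.55 to 5.77 on the other 13. All 8 pancreatic genes were above the background on these 4 arrays. Over the 15 points, the pancreatic list had r = 0.549 and rho = 0.125 with Pdk4 (permutation, adjusted p = 0.246 and 0.911). Without the 2 farthest points this r was -0.31. With Acot3 the list had r = -0.49 and rho = -0.321 (permutation, adjusted p = 0.451 and 0.663). Its part in the values of WT CONT 4 was not tested. PCN gave 0.04 (-0.42 to 0.51) in WT and -0.27 (-0.70 to 0.17) in Pxr-/- for Pdk4, and the genotypes without PCN differed by 0.09 (-0.35 to 0.52). The genes most like Pdk4 were 9430041J12Rik (r = 0.872), Ttbk1 (r = 0.871) and Ajm1 (r = 0.870).

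Acaa1b encodes a peroxisomal thiolase, the last step of fatty acid oxidation in that organelle (chr9:119148043-119157093, GRCm38.p6, with the probe at chr9:119057326-119057385 on the minus strand of mm9). It had the narrowest range of the 8 genes, from 10.89 on WT PCN 1 to 11.34 on Pxr-/- PCN 4 on the log2 scale. The 4 WT CONT arrays lay between 11.19 and 11.27, and the WT PCN arrays between 10.89 and 11.23. The PCN difference was -0.13 (95% interval -0.33 to 0.08) in WT and -0.01 (-0.20 to 0.18) in Pxr-/-. With 13 arrays the WT difference was -0.22 (-0.49 to 0.04). Its close copy Acaa1a was among the 3 genes most like it (r = 0.773), after Trpc4ap (r = 0.866) and Tex264 (r = 0.784).

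**Figure D3:**
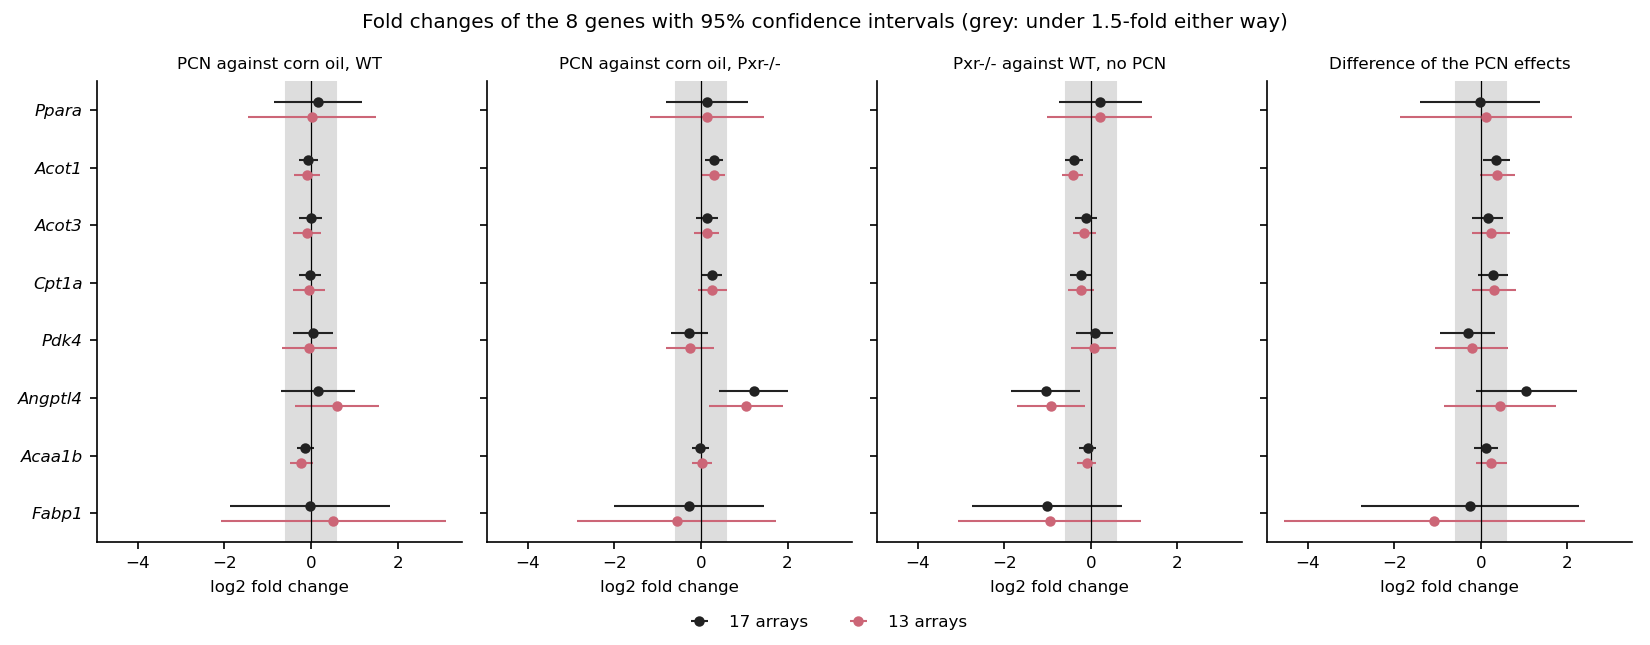
Log2 fold changes (x axes) of the 8 genes (y axis) with 95% confidence intervals in the 4 comparisons, from 17 arrays (black) and from the 13 arrays without the near-identical pairs (red), with a grey band for fold changes under 1.5. Intervals for Ppara, Angptl4 and Fabp1 are wide and leave the band in every comparison, while those of Acot3 and Acaa1b stay in it in the 4 comparisons of 17 arrays.

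Across the 8 genes, PCN in WT colon gave 0 calls (limma) with 17 or 13 arrays, beside 0% and 0.0491% of all probes, and 0 of 8 genes at an unadjusted p under 0.05, beside 4.66% and 4.68%. The median difference was -0.02 on the log2 scale, against -0.00 over all probes. The 95% interval lay within 1.5-fold either way for 5 of the 8 genes, Acot1, Acot3, Cpt1a, Pdk4 and Acaa1b, and no pair of groups was without overlap, beside 2.64% of all probes.

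For PCN in Pxr-/- colon, 0 of the 8 genes were called (limma), beside 0.00517% of probes with 17 arrays and 0.0517% with 13. At an unadjusted p under 0.05, 3 of 8 passed with 17 arrays, Acot1, Cpt1a and Angptl4, all higher, beside 7.35% of all probes, and 2 with 13 arrays, Acot1 and Angptl4, beside 7.19%. The median was 0.14, against 0.01 over all probes. For Pxr-/- CONT against WT CONT, 0 were called with 17 or 13 arrays, as for all probes (0%). Acot1 and Angptl4, 2 of 8, passed the unadjusted p in both, both lower, beside 12.7% and 10.1% of all probes, and 0 of 8 had groups without overlap, beside 5.4%. The median was -0.17, against 0.01. The PCN effects of the genotypes differed for 0 called genes, beside 0% and 0.00258%, and at an unadjusted p for Acot1 with 17 arrays, beside 5.38%, and for none with 13, beside 2.95%. The comparison of PCN in Pxr-/- colon and that of the genotypes share the Pxr-/- CONT arrays, so their opposite signs for Acot1, Cpt1a and Angptl4 are not independent.

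The wider pathway was read from 84 genes, of which 80 were tested. Cyp4a10, Cyp4a14 and Cyp4a12a, which hydroxylate fatty acids in the endoplasmic reticulum and respond strongly to PPARα in liver, and the hormone gene Fgf21 were above the background on too few arrays. None of the 80 was called in any comparison with 17 or 13 arrays. With PCN in WT, 32 were higher and 48 lower, with a median of -0.04. At an unadjusted p under 0.05, 1 was higher and 6 lower, beside 2.49% and 2.17% of all probes, and with 13 arrays 2 and 3, beside 3.12% and 1.55%. The 1 with 17 arrays was Pparg, the receptor of fat storage (0.54, SE 0.25, adjusted p = 0.956), and its relative Ppard was among the 6 (-0.20, SE 0.09, adjusted p = 0.956). With PCN in Pxr-/-, 50 were higher and 30 lower, with a median of 0.03. At that p, 2 were higher and 1 lower, beside 3.4% and 3.95% of all probes, and with 13 arrays 2 and 2, beside 3.56% and 3.63%. The 1 lower gene with 17 arrays was Rab30, a liver target of PPARα (-0.31, SE 0.12, adjusted p = 0.608). The PCN effect was higher in Pxr-/- than in WT for 47 genes and lower for 33, with 4 and 0 at that p, beside 2.43% and 2.95% of all probes. With 13 arrays these were 2 and 0, beside 1.12% and 1.84%.

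Without PCN, 57 of the 80 genes were lower in Pxr-/- than in WT and 23 higher, with a median of -0.08 against 0.01 over all probes. At an unadjusted p under 0.05, 15 were lower and 2 higher, beside 6.52% and 6.17% of all probes, and with 13 arrays 8 and 1, beside 5.59% and 4.49%. Of the 21 genes of mitochondrial fatty acid oxidation, 18 were lower, 8 of them at that p with 17 arrays and 3 with 13. Acot2 passed it in both, and Acadm, the medium-chain dehydrogenase, with 17 arrays only (-0.17, SE 0.08, adjusted p = 0.391, and -0.13, SE 0.08, adjusted p = 0.642, with 13). The 16 peroxisomal genes had 11 lower, 2 at that p with 17 arrays and 0 with 13, with the bifunctional enzyme gene Ehhadh at -0.11 (SE 0.09) and Acaa1a at -0.10 (SE 0.09). Of the 12 genes of uptake, binding and activation, 7 were lower and 5 higher, with 2 and 1 at that p, and of the 14 of lipid droplets and secreted targets, 11 were lower and 3 higher, with 3 and 1. The 2 higher ones were Vldlr (0.50, SE 0.20, adjusted p = 0.348) and Hilpda (0.44, SE 0.19, adjusted p = 0.365), named after their values were seen. The fatty acid carrier Cd36 was at -0.75 (SE 0.30, adjusted p = 0.345), and the droplet coat genes Plin2 and Plin4 were at -0.79 (SE 0.31, adjusted p = 0.336) and -0.53 (SE 0.35). The 7 genes of ketone body synthesis and use had 4 higher and 3 lower, with a median of 0.02. Cpt2 (-0.04, SE 0.07) and Acadvl (-0.05, SE 0.09), which act beside Cpt1a in mitochondria, had intervals around 0, as did Vnn1 (-0.28, SE 0.57) and Krt23 (-0.14, SE 0.14). The adipocyte list ranges given for Angptl4 apply here too, since Cd36 and Plin2 are also expressed in fat cells, and their part was not tested.

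**Figure D4:**
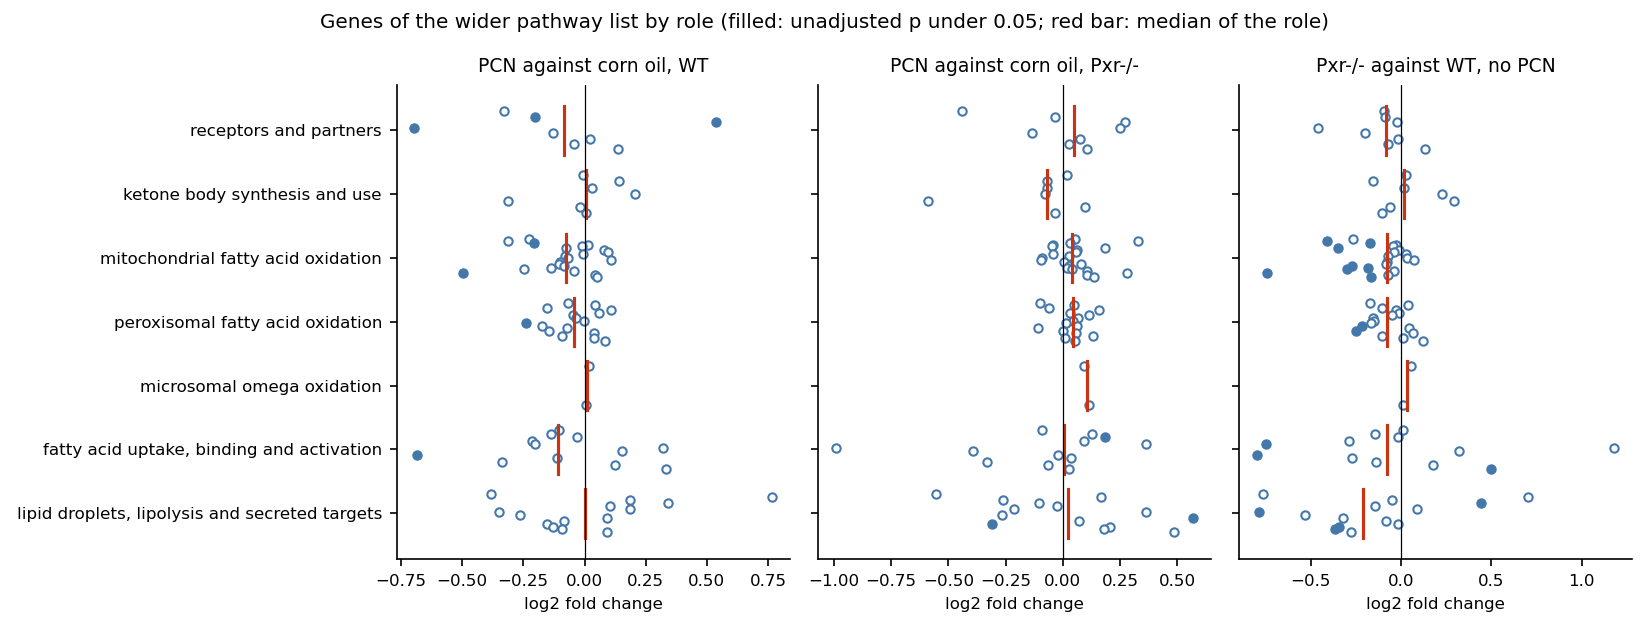
Log2 fold changes (x axes) of the 80 tested pathway genes by role (y axis) for PCN in WT, PCN in Pxr-/- and Pxr-/- against WT without PCN, with filled points for an unadjusted p under 0.05 and a red bar for the median of each role. Without PCN, 57 of the 80 points lie below 0, and none was called after adjustment.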

How the data were processed

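Labelled RNA of 17 colon samples was hybridized to 1-colour Agilent arrays (8 slides, 2 wash batches). The article describes liver arrays of the same design, and its methods are taken as those of the colon arrays. The authors deposited the scanner output (Agilent Feature Extraction 10.10.1.1), from which the median intensity of each spot was used, and a table of log2 values for 36695 probes, normalized by the authors, which served as an alternative.

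After removal of outlier spots, the log2 intensities were quantile-normalized, which stood in for CrossNorm, and averaged per probe. The test took probes that 4 or more arrays had flagged as well above background and used limma 3.58.1 in R 4.3.3, with the 4 groups and the wash batch in the model and Benjamini-Hochberg adjustment. Calls needed an adjusted p up to 0.05 with a fold change above 1.5. Local background had medians of 20 to 28 units, no spot was saturated, and precision is limited by the number of arrays. Replicates are separate samples per the labels, and whether each is 1 mouse is not stated, so that p-values measure the spread between these samples. The script was tested on simulated data.

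Probe positions are those of the files (mm9). Gene names and positions and promoter windows come from RefSeq (GRCm38.p6), which named 32994 probes. Relations with marker lists were tested by two-sided permutation with 100000 resamples. The genes named are the 8 genes, 19 pathway genes listed by name with Nr1i2, and the 3 most alike genes of each. Some of these are not reported here. The members and lists were chosen with earlier results of these data known. Fabp4, Ppargc1a and Slc25a20 are named in the closing section because of values seen later.

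Alternatives were the authors' log2 values, the processed signal scaled to the 75th percentile, normexp (offset 50), testing every probe or those above background on all 17 arrays, outlier spots kept, all probes of a gene, no batch term, slide or replicate number as a block, only the groups compared, trend and robust or array weights in limma, no fold limit, and arrays left out.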

Additional observations from a re-analysis of the deposited data

Results flagged for a closer look

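By Dixon's test at the 95% level, which sets the gap of an end value to its neighbour against the range of the group, 2 of the 32 sets of a gene and a group had a single array apart, where chance gives about 1 in 20. On WT CONT 4, Acot3 had a log2 signal of 6.27, with the next at 6.85, and Pdk4 had 8.94, with the next at 8.12. This array also had the highest signal of pancreatic enzymes. The relations of that list with Pdk4 and Acot3 over all points, given above, did not pass, and its part in these values was not tested.

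For Acot1 and Cpt1a, every WT PCN array lay below the WT CONT mean and every Pxr-/- PCN array above the Pxr-/- CONT mean. The share of all probes with this pattern was not counted, and some margins were small. For Acot1, WT PCN 1 read 10.1257 against a WT CONT mean of 10.1288. For Cpt1a, Pxr-/- PCN 3 read 13.6709 against a Pxr-/- CONT mean of 13.6575. In the authors' log2 values the pattern did not hold for Cpt1a, where WT PCN 2 and WT PCN 3 lay above the WT CONT mean. The difference of the PCN effects was 0.36 on the log2 scale for Acot1 and 0.27 for Cpt1a, with adjusted p of 0.848 for both (limma).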

How the results depend on the processing

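Under 36 alternative settings, 285 of 286 counts of called genes, taken over the 8 genes or the 80 pathway genes, were unchanged at 0. Array weights gave 4 called pathway genes for Pxr-/- against WT without PCN in place of 0, Ppargc1a (-0.75), Slc25a20 (-0.77), Fabp4 (-0.81) and Plin2 (-0.90), with 552 of all probes called in place of 0. None of the 1108 recomputed log2 values of the 8 genes was called, and 1036 kept their sign. The differences of Acot1 and Angptl4 for PCN in Pxr-/- and for the genotype kept theirs in all 35 settings that gave a value. The 4 values that moved by more than the residual SD were Acot3 for the genotype with the slide as a block (-0.30), the Angptl4 interaction without the near-identical arrays (0.44), Fabp1 for the genotype without WT CONT 5, WT PCN 1 and WT PCN 2 (0.20) and Ppara for PCN in Pxr-/- without Pxr-/- PCN 4 (-0.54). The cause was not tested. Leaving out 1 array at a time left every count of called members and pathway genes at 0. The main model did not pair samples by replicate number. Deviations from the group means were correlated between samples of different groups. With the same number, 11 of 22 correlations were over 0.1 (median 0.10), against 30 of 86 with different numbers (median -0.05). The replicate block left 0 members called, with Acot1 at 0.25 and Angptl4 at 1.19 for PCN in Pxr-/-. All probes called for PCN in WT and in Pxr-/- went from 0 and 2 to 39 and 29 without WT PCN 3 and 4, to 18 and 26 without WT PCN 3 alone, and to 19 and 20 without the near-identical arrays. Only the groups compared gave 20 for PCN in Pxr-/- and 8 for the genotype. The interaction uses all groups, so that this setting gave no value for it. With 4 or 5 arrays a group, differences of Ppara, Angptl4 and Fabp1 under 1.5-fold could not be resolved, nor could some larger ones. With 17 arrays, confidence intervals for PCN in WT on the log2 scale were -1.88 to 1.83 for Fabp1 and -0.85 to 1.18 for Ppara. For Angptl4 this interval was -0.69 to 1.03.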
